A study of Mus musculus with 2 samples.

Results

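Amino acid transporters were examined in tibialis anterior, a muscle of the lower leg, on Illumina bead arrays. The genes were those whose platform symbol belongs to the solute carrier families Slc1a, Slc3a, Slc6a, Slc7a, Slc36a, Slc38a or Slc43a. This gave 57 genes and 81 probes out of 16593 named genes and 25697 probes. The muscle came from C57/BL6 mice that were 10 days old when injected subcutaneously with vehicle, the control, or with DHT (dihydrotestosterone, as the abbreviation is taken here), a strong androgen. Tissue was collected 24 h later, and each group had 1 array. The labels give no transgene or other allele, and name neither the sex of the mice nor the number of animals behind an array.

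Amino acids do not cross membranes by themselves, and cells sort their carriers into transport systems by substrate and driving force. System L exchanges large neutral amino acids such as leucine through a light chain (Slc7a5 or Slc7a8) held at the surface by the heavy chain Slc3a2. System A (Slc38a1, Slc38a2 and Slc38a4) concentrates small neutral amino acids with sodium and supplies the exchangers. In muscle, these carriers feed protein synthesis and growth signalling, while Slc6a8 and Slc6a6 load fibres with creatine and taurine, which the fibre uses for energy buffering and osmotic balance.

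The selection is wider than its name. Slc6a8 carries creatine, Slc6a2, Slc6a3 and Slc6a4 carry monoamine transmitters, Slc43a3 carries purine nucleobases, and Slc7a6os is a gene beside Slc7a6 that encodes no carrier. The muscle label matched its markers, since all 8 skeletal fibre genes examined, among them creatine kinase Ckm and skeletal actin Acta1, were detected on both arrays, 6 of them above a signal of 40000.

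Signal is the brightness of a probe on a linear scale, and a probe was called detected at a detection p under 0.01 against the background of its array. The lowest detected signal was 190 with vehicle and 180 with DHT. In that order, total signal was 2.99e+07 and 2.65e+07, and 46.5% and 45.7% of probes were detected; pairs of signals below follow the same order. A difference is the DHT value less the vehicle value, on a log2 scale, after background correction and quantile normalization. With 1 array per group they carry no error between animals and no test, and the number of arrays limits their precision. Detected probes of a gene differed among themselves with an SD of 0.29 over 2229 genes, and background probes between the arrays with an SD of 0.20.

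Of the 57 genes, 26 were detected on at least 1 array and 31 on neither. Detection held on both arrays for 20, on the vehicle array alone for 3 and on the DHT array alone for 3. The 26 included 25 carriers and Slc7a6os. Signals of the detected carriers lay well below the top of the scale, with a highest value of 5375.

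Among the 26 detected genes, 11 (42.3%) were higher with DHT by 1.5-fold or more, where 13.4% of all 8815 detected named genes were that much higher. At least 1.5-fold lower were 4 (15.4%), against 15.8% of all genes. The remaining 11 differed by less. The median log2 difference was 0.35, and it was -0.01 over all genes. Without Slc7a6os the counts were 10 and 4 of 25, with a median of 0.34. Of the 20 with detection on both arrays, 9 stood higher and 2 lower, where the shares over all such genes were 12.0% and 13.4%. These shares describe 2 arrays and genes picked with earlier results of these data known.

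The higher genes were Slc7a8, Slc3a2, Slc6a9, Slc1a3, Slc7a10, Slc7a6, Slc6a8, Slc7a6os, Slc6a6, Slc1a1 and Slc38a3, and the lower ones Slc38a5, Slc6a13, Slc1a2 and Slc7a4. With the genes detected on 1 array at their bound, 10 were higher and 3 lower at 1.5-fold, Slc1a1 and Slc1a2 falling short, and 3 were higher and 1 lower at 2-fold. Dim genes spread more widely on these arrays. Of 17 detected genes with a mean signal under 400, 6 were higher and 4 lower, where 17.3% and 20.5% of all such genes were. Of 9 with a mean signal of 400 or more, 5 were higher and 0 lower, where 11.1% and 12.9% of all such genes were. The boundary of 400 was set after the values were seen. The mean is over the 2 arrays compared, so the class of a gene depends in part on its difference. Slc7a8, with signals of 344 and 869, was in the brighter class only through its DHT signal.

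**Figure D1:**
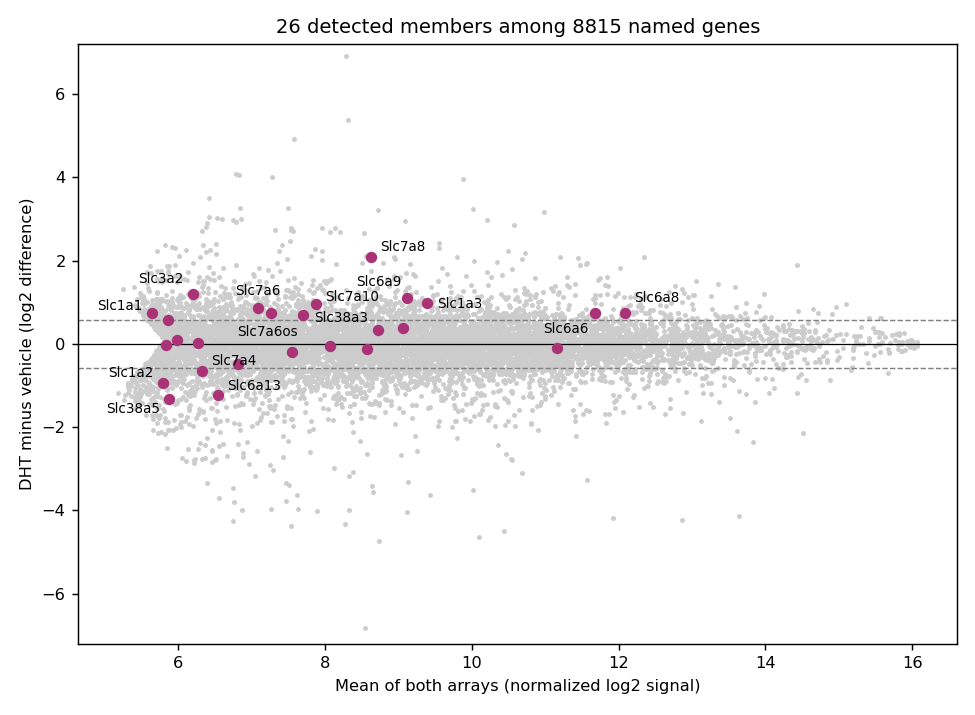
Log2 difference (DHT minus vehicle, vertical) against the mean normalized log2 signal of both arrays (horizontal) for 8815 named genes in grey and the 26 detected genes of the selected families in purple. Dashed lines mark 1.5-fold and names are given to the 15 genes past it; of those detected on both arrays, Slc7a8 at 2.09 lies highest and Slc6a13 at -1.24 lowest. Points of genes detected on 1 array (Slc3a2, Slc1a1, Slc38a5 and Slc1a2 among those named) are fitted against background.

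The background correction set the size of many of these differences. Without it 6 of the 26 (23.1%) were at least 1.5-fold higher, against 6.74% of all genes, and 0 were lower, against 8.43%. The 6 were Slc7a8, Slc6a9, Slc1a3, Slc6a8, Slc6a6 and Slc7a10. Folds of the dim carriers are therefore given with their uncorrected counterparts.

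**Figure D2:**
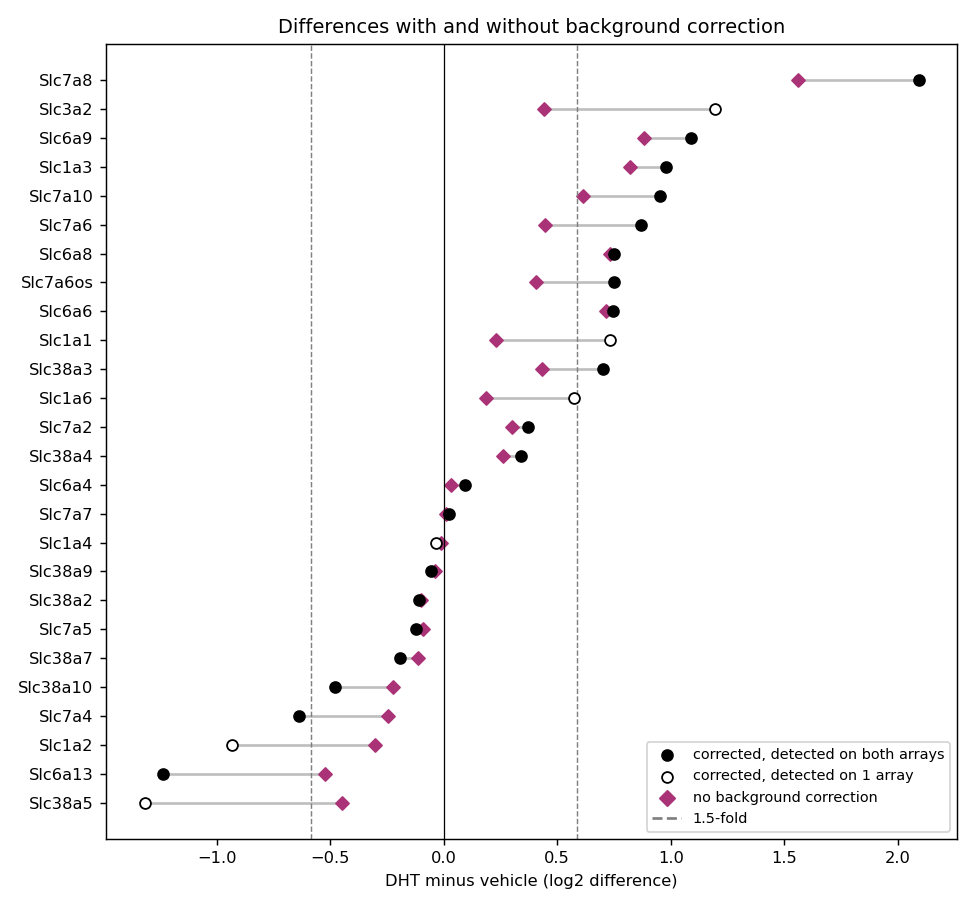
Log2 difference (DHT minus vehicle, horizontal) for each of the 26 detected genes (vertical), with background correction (circles, open where the gene was detected on 1 array) and without it (diamonds). All 4 lower genes fall inside the dashed 1.5-fold lines without correction, while 6 of the 11 higher genes stay outside them.

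System L held the largest difference of the set. Slc7a8, the light chain known as LAT2, had a signal of 344 with vehicle and 869 with DHT (probe ILMN_2598877). This was 4.27-fold higher, a log2 difference of 2.09, and 2.95-fold uncorrected. Its other probe, ILMN_2780392, read 164 and 275, was detected on the DHT array alone, and was at least 3.02-fold higher on the background-corrected scale and 1.83-fold higher uncorrected. Slc7a5, the related light chain LAT1, went the other way in signal, with 575 and 451. After normalization its difference was -0.12, smaller than the SD between probes. Slc43a2, a facilitator of the same substrates without a heavy chain, was detected on neither array.

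The heavy chain Slc3a2 (CD98), partner of several Slc7a light chains, had signals of 182 and 227 and was detected on the DHT array alone. It was at least 2.03-fold higher, a bound on the background-corrected scale alone, as are the other at-least folds, and 1.36-fold higher uncorrected. The bound sets the bright array against the lowest detected value of the dim one. The light chain and its heavy chain thus both read higher on the DHT array, the heavy chain from a signal near background.

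Promoters of these partners are shown because together they form 1 carrier and both read higher. Each window runs from 250 bases before to 50 after the gene start in RefSeq's GRCm38.p6 annotation, 5′ to 3′ on the gene's strand. Slc7a8 lies at chr14:54781837-54782136 (minus strand, 58.0% G and C) and Slc3a2 at chr19:8713848-8714147 (minus strand, 56.0%).
Slc7a8: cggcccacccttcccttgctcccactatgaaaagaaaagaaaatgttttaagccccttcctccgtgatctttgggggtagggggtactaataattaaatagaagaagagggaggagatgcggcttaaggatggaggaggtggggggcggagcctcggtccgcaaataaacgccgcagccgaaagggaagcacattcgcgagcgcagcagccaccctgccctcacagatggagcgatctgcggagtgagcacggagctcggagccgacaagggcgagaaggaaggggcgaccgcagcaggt
Slc3a2: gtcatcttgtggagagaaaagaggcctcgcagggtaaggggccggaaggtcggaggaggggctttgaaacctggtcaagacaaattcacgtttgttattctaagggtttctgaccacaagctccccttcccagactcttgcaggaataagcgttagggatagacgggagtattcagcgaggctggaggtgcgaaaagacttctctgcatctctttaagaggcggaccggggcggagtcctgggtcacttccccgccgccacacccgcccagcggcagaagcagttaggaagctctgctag
Neither window held the letters TTGCATCA, a composite element through which the stress factor ATF4 acts on several transporter genes, or a palindromic androgen response element, on either strand. This says only that these letters are not in these windows.

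The table of promoters matched 41 of the 57 genes by symbol, with 62 windows. The composite element was in windows of 3 of these 41 genes, Slc1a4, Slc7a7 and Slc7a11, and in 1.03% of 27025 genes in the table. The palindromic element was in 0 of the 41 and in 0.0111% of all. The stretches with the composite element are shown because they are the places where that motif meets the selected families, with the motif in capitals, as TTGCATCA or its reverse complement TGATGCAA. They lie on minus strands of GRCm38.p6, at chr11:20332690-20332737 for Slc1a4, chr14:54417918-54417965 for Slc7a7 and chr3:50443633-50443699 for Slc7a11, which has the motif on both strands.
Slc1a4: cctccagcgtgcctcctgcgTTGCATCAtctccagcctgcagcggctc
Slc7a7: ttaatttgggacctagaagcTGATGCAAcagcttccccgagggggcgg
Slc7a11: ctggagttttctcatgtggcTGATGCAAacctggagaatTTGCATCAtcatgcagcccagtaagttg
None of these 3 genes was past 1.5-fold. Slc1a4 had signals of 193 and 179 and a difference of -0.03, with detection on the vehicle array alone. Slc7a7 differed by 0.02. Slc7a11, the cystine and glutamate exchanger, read 157 and 162 and was detected on neither array.

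**Figure D3:**
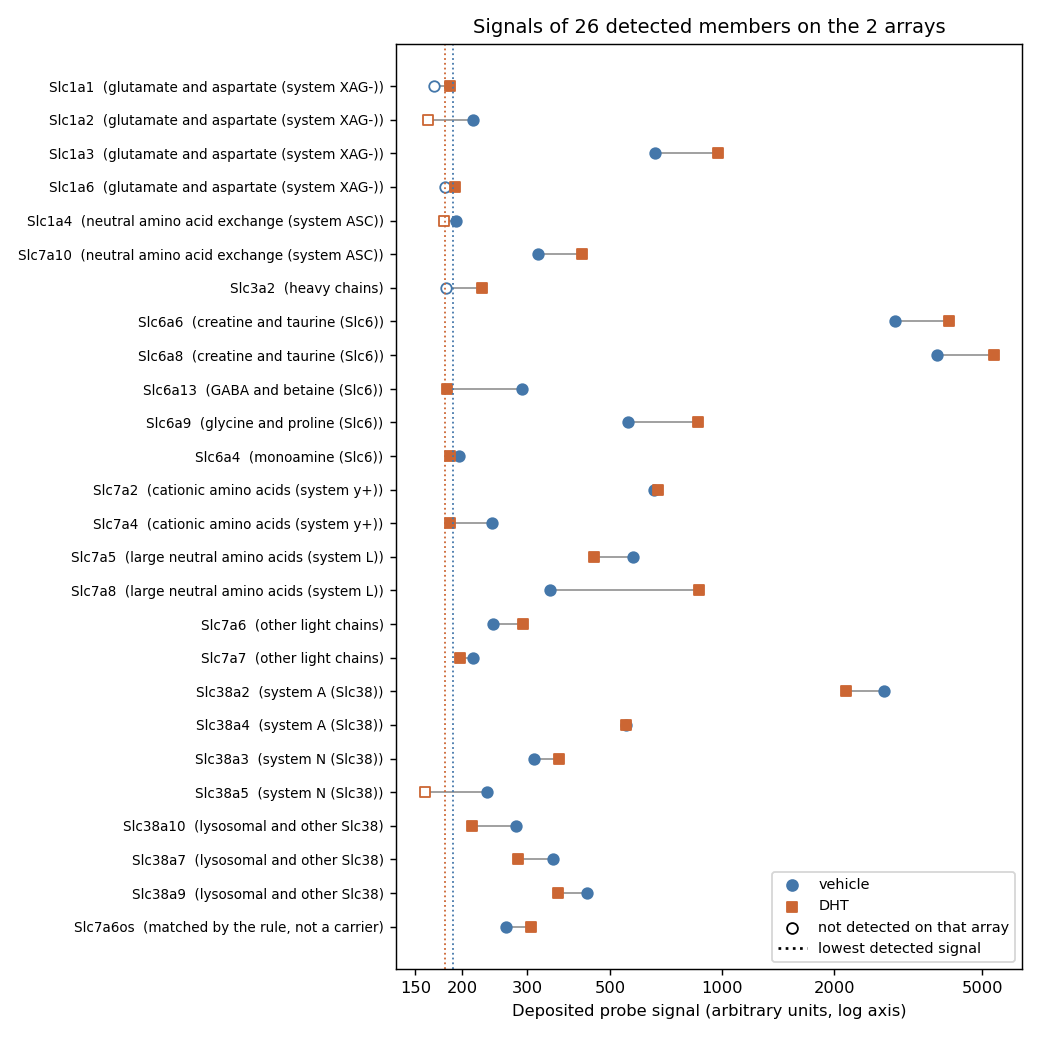
Deposited signal (horizontal, log axis) of each of the 26 detected genes on the vehicle array (circles) and the DHT array (squares), grouped by transport system (vertical). Open symbols were not detected on that array and dotted lines mark the lowest detected signal of each array, 190 and 180; the pairs of Slc7a8, Slc6a13 and Slc6a9 are the widest apart.

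The Slc6 carriers of creatine and taurine were both higher on the DHT array and, being bright, hardly changed with the background correction. Slc6a8, which brings creatine into the fibre, had signals of 3775 and 5375 (probe ILMN_2605212). It was 1.68-fold higher, with a difference of 0.75, and 1.66-fold uncorrected. Slc6a6, the taurine carrier, read 2906 and 4078 (probe ILMN_2641467). It was also 1.68-fold higher, with a difference of 0.74, and 1.64-fold uncorrected. Normalization mattered more. In the deposited signals as they stand, the differences were 0.51 for Slc6a8 and 0.49 for Slc6a6, both under 1.5-fold. The median of all genes was then -0.21.

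The glycine carrier Slc6a9 (GLYT1), which also serves developing red cells, had signals of 558 and 864 (probe ILMN_2667384). It was 2.13-fold higher, with a difference of 1.09, and 1.84-fold uncorrected. Slc6a13, a carrier of GABA that also takes betaine and taurine, was the opposite, with signals of 291 and 183 (probe ILMN_1212645). It was 2.36-fold lower, with a difference of -1.24, and 1.44-fold uncorrected, its DHT signal being just above the detection level. The serotonin carrier Slc6a4 read 197 and 186, close to the lowest detected signals, and differed by 0.09.

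Of the glutamate and aspartate carriers of system XAG-, Slc1a3 (GLAST) was well above background, with signals of 661 and 972 (probe ILMN_2634317). It was 1.97-fold higher, with a difference of 0.98, and 1.76-fold uncorrected. The other 3 detected members of this system were at the edge of detection. Slc1a1, which also takes up cysteine, read 168 and 186 and was at least 1.17-fold higher, also 1.17-fold uncorrected. Slc1a6 read 181 and 191 and was at least 1.29-fold higher, or 1.14-fold uncorrected. Slc1a2, the main glutamate carrier of brain astrocytes, read 215 and 163 and was at least 1.32-fold lower, or 1.23-fold uncorrected. It had 3 more probes, none of them detected.

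Among exchangers of small neutral amino acids, Slc7a10 (Asc-1) had signals of 319 and 420.3 (probe ILMN_2705508). It was 1.93-fold higher, with a difference of 0.95, and 1.53-fold uncorrected. This carrier is known as a surface marker of white adipocytes. Of the 5 adipocyte markers detected, 4 were higher with DHT by 1.5-fold or more and 0 lower, beside 13.4% and 15.8% of all genes. Their median difference was 1.19. Their summed uncorrected normalized signal was 3164 with vehicle and 6711 with DHT, and Fabp4 and Retn were detected on neither. The part of fat in the Slc7a10 difference was not tested. In whole muscle a change in the number of cells of a type and a change in RNA per cell cannot be told apart.

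Of the cationic carriers of system y+, 2 were detected. Slc7a2 (CAT2), which takes up arginine and lysine, read 657 and 674 with its brightest probe and differed by 0.37. A dimmer probe read 259 and 310.0 and differed by 0.82, but was 1.36-fold higher uncorrected, short of 1.5-fold. Slc7a4, a relative with no settled substrate, read 241 and 186 and was 1.56-fold lower, or 1.19-fold uncorrected. Slc7a1, the widely expressed cationic carrier, was detected on neither array with either of its probes.

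The light chains of system y+L, which trade cationic for neutral amino acids, differed from each other. Slc7a6 read 242 and 291 (probe ILMN_2600389) and was 1.83-fold higher, with a difference of 0.87, and 1.36-fold uncorrected. Its neighbour Slc7a6os read 262 and 307 and was 1.68-fold higher, or 1.33-fold uncorrected. Slc7a7 read 214 and 197 with a difference of 0.02, and its second probe, at 207 and 168 and detected on the vehicle array alone, was 1.15-fold lower uncorrected (at least 1.19-fold on the corrected scale).

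System A carriers differed little between the arrays. Slc38a2 (SNAT2), the carrier that cells raise when amino acids run short, read 2722 and 2146 with its brightest probe and 1828 and 1529 with another. Their differences after normalization were -0.11 and 0.00. Slc38a4, an imprinted carrier, read 551 on both arrays and differed by 0.34. Slc38a1 was detected on neither array.

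System N, which moves glutamine and histidine, split. Slc38a3 (SNAT3) had signals of 313 and 365 (probe ILMN_2750089) and was 1.63-fold higher, with a difference of 0.70, and 1.35-fold uncorrected. Slc38a5 (SNAT5) read 233 and 159 (probe ILMN_2649773) and was detected on the vehicle array alone. It was at least 1.60-fold lower and 1.37-fold lower uncorrected.

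Slc38a5 is known in endothelium and in red cell precursors, and proliferating cells use several of these carriers. Over all detected genes, 15.8% were lower and 13.4% higher with DHT by 1.5-fold or more. Of 8 endothelial markers detected, 7 were lower with DHT by 1.5-fold or more and 0 higher, with summed signals of 20445 and 10679.5 (uncorrected, normalized). Kdr was detected on neither array. Of 6 cell cycle markers detected, all 6 were lower, with summed signals of 5918 and 1056, and 5 of them were not detected on the DHT array. Of 4 red cell markers detected, 3 were higher and 1, Slc4a1, lower, with summed signals of 3929 and 3946, while Epb42 was detected on neither. The fibroblast markers summed to 99206 and 69468, with 5 of 8 lower and 1, Gsn, higher. Dcn, the brightest of them, had a difference of 0. The neutrophil markers summed to 10214 and 3908, with 7 of 8 lower and 0 higher. The skeletal fibre markers summed to 473286 and 482870, with 0 of 8 past 1.5-fold, although signals near the top of the scale compress differences. The part of these cell types in the lower or higher carriers was not tested.

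Of the lysosomal and other carriers of Slc38, 3 were detected, and none passed 1.5-fold with its brightest probe. Slc38a9, which senses arginine inside the lysosome for the growth kinase mTORC1, read 434 and 362 with its brightest probe and differed by -0.06. A dimmer probe, near the detection level, read 199 and 221 and differed by 0.73, or 1.22-fold uncorrected. These differences had opposite signs, but that of the brightest probe was smaller than the SD between probes. Slc38a7, which exports glutamine from lysosomes, read 352 and 284 and differed by -0.20. Slc38a10, a less studied relative, read 279 and 213 and differed by -0.48. The 3 proton-coupled carriers Slc36a1, Slc36a2 and Slc36a3 were detected on neither array.

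**Figure D4:**
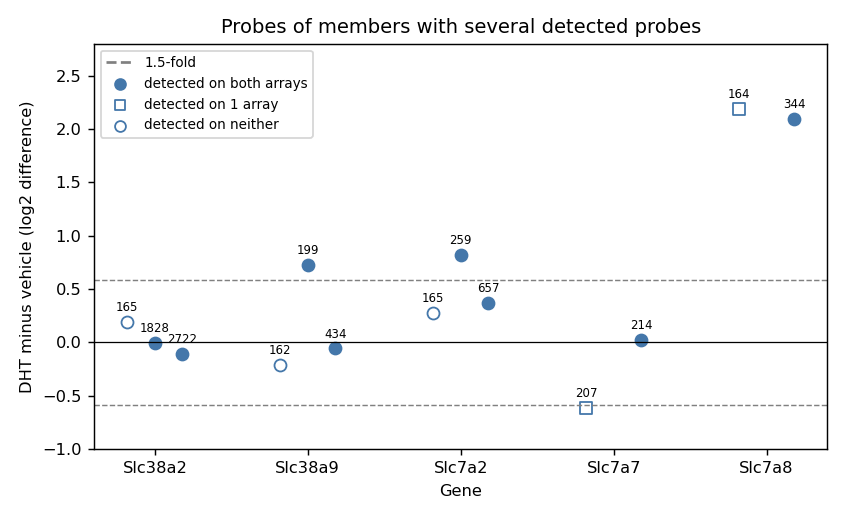
Log2 difference (DHT minus vehicle, vertical) of every probe of the 5 genes with more than 1 detected probe (horizontal), labelled with the probe's vehicle signal. Filled circles were detected on both arrays, open squares on 1 array, where the difference is fitted against background and only a bound holds, and open circles on neither; both Slc7a8 probes lie above 0, whereas the 2 detected Slc38a9 probes lie on both sides of it.

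The 31 genes detected on neither array had 43 probes, with signals from 119 to 181 with vehicle and from 126 to 179 with DHT. From Slc1 these were the glutamine exchanger Slc1a5 and the retinal glutamate carrier Slc1a7. From Slc6 they were the monoamine carriers Slc6a2 and Slc6a3, the GABA and betaine carriers Slc6a11 and Slc6a12, the glycine and proline carriers Slc6a5, Slc6a7, Slc6a20a and Slc6a20b, the neutral amino acid carriers Slc6a14, Slc6a15, Slc6a17 and Slc6a19, and Slc6a21. From Slc7 they were Slc7a1, Slc7a3, Slc7a9, Slc7a11, Slc7a12, Slc7a13, Slc7a14 and Slc7a15. The rest were Slc36a1, Slc36a2, Slc36a3, Slc38a1, Slc38a8, Slc38a11, Slc43a2 and Slc43a3. Their levels were not compared, and a gene below detection may still be expressed.

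Enzymes that make or use the carried molecules were set beside the carriers. Of 32 such genes listed, 23 were detected, 10 at least 1.5-fold higher and 5 lower, beside 13.4% and 15.8% of all genes, with a median difference of 0.29. Without background correction the counts were 7 and 4. For creatine, Gamt, which completes its synthesis, read 7594 and 1832 and was 3.75-fold lower, while the mitochondrial creatine kinase Ckmt2 read 25693 and 37809.9 and was 1.64-fold higher. Gatm, the first enzyme of creatine synthesis, was detected on neither array. The muscle creatine kinase Ckm read 67343 and 66863, near the top of the scale, and differed by 0.004.

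For taurine, Cdo1, which starts the path from cysteine, read 505 and 3038 and was 9.49-fold higher, or 7.13-fold uncorrected. Csad, the next enzyme, read 304 and 212 and was 1.64-fold lower, or 1.27-fold uncorrected. For branched-chain amino acids, which system L carries, the mitochondrial transaminase Bcat2 read 870.0 and 2993 and was 4.69-fold higher, or 4.09-fold uncorrected. The cytosolic form Bcat1 read 525 and 217 and was 3.51-fold lower, or 2.10-fold uncorrected.

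For glutamate, glutamine and alanine, glutamine synthetase Glul read 247 and 585 and was 4.88-fold higher, or 2.74-fold uncorrected. The transaminases Gpt2 (2605 and 5664) and Got1 (1194 and 1713) were 2.64-fold and 1.82-fold higher. Asparagine synthetase Asns read 657 and 1087 and was 2.25-fold higher, or 1.98-fold uncorrected. Glutamate dehydrogenase Glud1 (log2 difference 0.64), the glutathione synthesis subunit Gclm (0.59) and the serine synthesis enzyme Phgdh were the other higher members. Uncorrected, Glud1 was 1.47-fold and Gclm 1.42-fold higher, both short of 1.5-fold. Phgdh was detected on the DHT array alone and passed 1.5-fold only as a value fitted against background, its bound on the corrected scale being 1.30-fold and its uncorrected fold 1.16. A second Glud1 probe, near the detection level, differed by 0.07. Aldh18a1, of proline synthesis, was 1.76-fold lower, and Shmt1, which converts serine to glycine, was detected on the vehicle array alone and 1.61-fold lower uncorrected (at least 2.23-fold on the background-corrected scale).

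**Figure D5:**
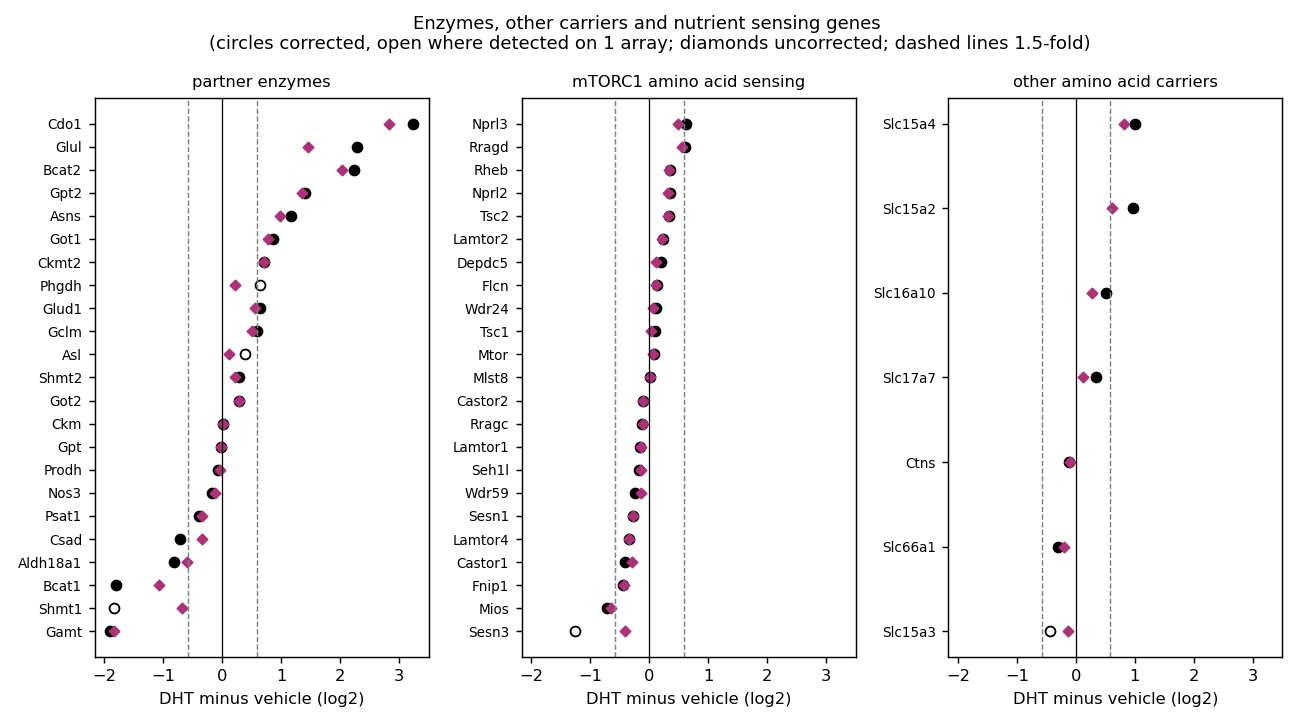
Log2 difference (DHT minus vehicle, horizontal) of the detected genes of 3 lists (vertical). They are 23 partner enzymes, 23 genes of mTORC1 and its amino acid sensing, and 7 other amino acid carriers. Circles are background corrected and open where the gene was detected on 1 array, diamonds are uncorrected, and dashed lines mark 1.5-fold; the enzymes run from -1.91 for Gamt to 3.25 for Cdo1, the sensing genes from -1.25 to 0.62.

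Genes of mTORC1 and its amino acid sensing differed little by their median. Beside sensing genes, the list holds Mtor, Mlst8, Rheb, Tsc1 and Tsc2. Of 30 listed, 23 were detected. At 1.5-fold 2 were higher and 2 lower, beside 13.4% and 15.8% of all genes. Their median difference was 0.01, and it was -0.01 over all genes. Without background correction 0 were higher and 1, Mios, was lower, beside 6.74% and 8.43% of all genes. The higher genes were Nprl3 (0.62), a subunit of the GATOR1 brake, and the Rag GTPase Rragd (0.61). The lower ones were the GATOR2 subunit Mios (-0.71) and Sesn3, a relative of the leucine sensor Sesn2, which was detected on the vehicle array alone and was 1.34-fold lower uncorrected (at least 1.38-fold on the corrected scale).

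Of 13 amino acid and peptide carriers from other families, 2 had no probe of that name and 7 were detected. At 1.5-fold 2 were higher and 0 lower, beside 13.4% and 15.8% of all genes. Slc15a4, which moves histidine and peptides out of lysosomes, read 588 and 872 and was 2.01-fold higher, or 1.77-fold uncorrected. Its second probe had a log2 difference of 1.20. The peptide carrier Slc15a2 read 305 and 399 and was 1.95-fold higher, or 1.52-fold uncorrected. The median difference of the 7 was 0.34.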

How the data were processed

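RNA of tibialis anterior muscle, extracted with Trizol and labelled from 0.55 µg, was measured on 1 array per group. Per the file headers, the authors deposited a signal intensity per probe on a linear scale, without normalization between arrays, with a detection p-value beside each. The deposited series values are log2 values; they lay within 0.00065 of what quantile normalization of the signals gave here without background correction. The submitters' processing notes name GenomeStudio 2011.1, with its role and any genome build not given in the sources used here.

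Probes took names from the platform annotation, which can be old: 23978 had 1 symbol, 0 several and 1719 none. All 57 selected genes matched a mouse gene table (GRCm38.p6) by Entrez identifier. Background was corrected from the detection p-values with an offset of 16, followed by quantile normalization (neqc procedure, limma 3.58.1, R 4.3.3). A gene's value came from its brightest probe detected at p under 0.01 on at least 1 array. Genes detected on 1 array have a bound only. Calls were made at 1.5-fold, with no test. All detected selected genes were named with values, and of the enzyme, sensing and carrier lists those past 1.5-fold. Members and lists were chosen with earlier results of these data known. Probes of similar family members can share transcripts, as can those of Slc6a20a and Slc6a20b. Tables were made with pandas 2.3.3 and numpy 2.4.6 and plots with matplotlib 3.10.9, under Python 3.11.15.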

Additional observations from a re-analysis of the deposited data

How the results depend on the processing

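Without background correction, and with the deposited series values, 6 of the 26 genes passed 1.5-fold upwards and 0 downwards; the median was 0.21. An offset of 50 gave 10 higher and 2 lower. Genes detected on both arrays numbered 20, with 9 higher and 2 lower, and the mean of a gene's detected probes moved the median to 0.46. Centring without a quantile step (12 higher, 4 lower, median 0.29) and a detection p under 0.05 (11 and 4 of 31, median 0.26) stayed within 1.5 times the counts given. Of 2 alternatives chosen after seeing the data, placing genes detected on 1 array at their bound gave 10 and 3, with a median of 0.28. The deposited signals as they stand gave 2 higher, 1 lower and a median of 0.018, where the median of all genes was -0.21. No gene past 1.5-fold changed sign under any of these alternatives. Slc1a4, Slc38a9, Slc6a4 and Slc7a7, all under 1.5-fold, did under at least 1 of them. Slc7a8 and Slc6a9 were past 1.5-fold under all 9 settings other than the bounds, from 1.34 to 2.14 and from 0.63 to 1.09. No paired analysis was possible because each group had 1 array, and no array could be left out. Signal near background limits the dim genes: 17 of the 26 had a mean signal under 400.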

Other observations

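Several of the selected genes are neighbours on the chromosomes of the mouse reference (GRCm38.p6), with no other protein-coding gene between them. On chromosome 8, Slc7a6 and Slc7a6os were both higher on the DHT array, by 0.87 and 0.75 on the log2 scale. On chromosome 15, Slc38a1 was detected on neither array, Slc38a2 differed by -0.11 and Slc38a4 by 0.34. On chromosome 6, Slc6a13 was lower by a log2 difference of -1.24, while the adjacent Slc6a12 was detected on neither array. The neighbouring Slc36a1, Slc36a2 and Slc36a3 on chromosome 11, and Slc6a20a and Slc6a20b on chromosome 9, were all undetected.

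Macrophage markers, a cell type in which Slc7a7 is known, were near level: of 6 detected, 0 were higher and 1, Mrc1 (-0.60), was lower. Over all detected genes the shares past 1.5-fold were 13.4% higher and 15.8% lower. The macrophage markers had summed uncorrected normalized signals of 7797 and 7475. Of 3 Schwann cell markers detected, Ncmap (0.74) was higher and 0 were lower, with sums of 14408 and 17236.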
